A study of Dendrobium huoshanense with 6 samples.

Results

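Dendrobium huoshanense is an orchid used in medicine. In its whole seedlings, 233 assembled transcripts or transcript clusters had no reads in any normal growth library and reads in every cold library. They were chosen by measured values from all 6 libraries. Estimated reads were summed over the contigs of each cluster, and a feature was kept with a sum of 0 in all 3 normal growth libraries, at least 15 reads in each of the 3 cold libraries, and a lowest cold level under 50 CPM (reads scaled to the total of the library). A feature is a cluster of related contigs or a contig that belongs to no cluster, and the 233 were found among 118758 features in all. Because the rule read the very values that set cold apart from normal growth, the levels below describe the chosen features and are no evidence that cold raised them.

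The cold group held 3 libraries labelled as cold stress treatments and the normal growth group 3 libraries labelled as normal growth, each from whole seedlings. The labels name no genotype or cultivar. They speak of biological repeats but give no number of seedlings per library, so p-values measure the spread between these libraries, which may in part be technical. The protocol, worded alike for every sample, speaks of annual plants, 4 °C, 11 h of light per day and collection at 0 and 7 days. If normal growth stands for day 0 and cold for day 7, the groups differ both in temperature and in time, which cannot be told apart here. In RNA from whole seedlings, more cells of one type and more RNA per cell cannot be told apart either.

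Many plants answer low temperature with a programme of newly induced transcripts. In Arabidopsis the CBF (DREB1) transcription factors, themselves hardly expressed in the warm, are induced by cold and switch on COR genes, several of which encode dehydrins and other protective proteins. A transcript absent before cold and present in it is therefore a familiar kind of response. The deposited tables identify contigs by ID and pair them with no gene or product name, and contig sequences were not used here. None of these known genes could be placed among the 233, and the features are described by their structure, levels and read assignment.

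The first question was what kind of features the rule had found. Single contigs made up nearly the whole set, at 222 unclustered contigs and 11 clusters. Clusters are thus a small minority of what was found. Of all features, 16105 were clusters and 102653 were unclustered contigs. Unclustered contigs made up 95.3% of the 233, against 58.5% of the 21632 features that met the same cold conditions but had reads in normal growth, which are used below for comparison. Of these, the 16045 with over 100 reads summed over normal growth were 50.0% unclustered. In each class with fewer reads there the share was 78.4% to 85.4%, so much of the gap lay with the well-read features. Of the 12874 unclustered contigs that met the cold conditions, 1.72% were at 0 in normal growth, against 0.122% of the 8991 clusters. The 11 clusters were small, with 5 of 2 contigs, 4 of 3 contigs and 2 of 4 contigs.

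Estimated reads came to 15284397, 16861750 and 17255112 in cold replicates 1, 2 and 3, and to 17683567, 18085164 and 17734859 in normal growth replicates 1, 2 and 3. Every normal growth library was deeper than every cold library. As counting error alone, a 0 in 1 normal growth library allows up to 3 reads, or 0.166 to 0.170 CPM, and 3 reads over the whole normal growth group correspond to 0.0561 CPM. PCR copies were not told apart from molecules, so these limits leave out other sources of error.

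The rule took a narrow slice of the features that were empty in normal growth. There were 34597 features at 0 in all 3 normal growth libraries, of which 7165 were at 0 in all 6 libraries and 4973 had at least 1 read in each cold library. Only the read minimum of 15 then reduced these to 233, and the upper limit of 50 CPM removed none. The mirrored rule, with 0 in every cold library and at least 15 reads in each normal growth library, was met by 37 features, 34 of them unclustered. At 1 read in place of 15, the mirrored count was 958.

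The 233 features were of low abundance in the cold. Their mean cold level had a median of 2.96 CPM and ran from 1.05 to 30.6 CPM, with 54 features under 2 CPM, 119 from 2 to 5, 45 from 5 to 10 and 15 at 10 or above. Together they took 0.101% ± 0.00652 of the cold reads (SD, n = 3), at 0.101%, 0.107% and 0.0944% in cold replicates 1, 2 and 3. The share was thus nearly equal in the 3 cold libraries. The 10 features of highest mean level held 18.4% of the summed CPM and the highest 50 held 49.7%, so no small group carried the set. The comparison features, with reads in normal growth, had a median cold level of 7.73 CPM.

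**Figure D1:**
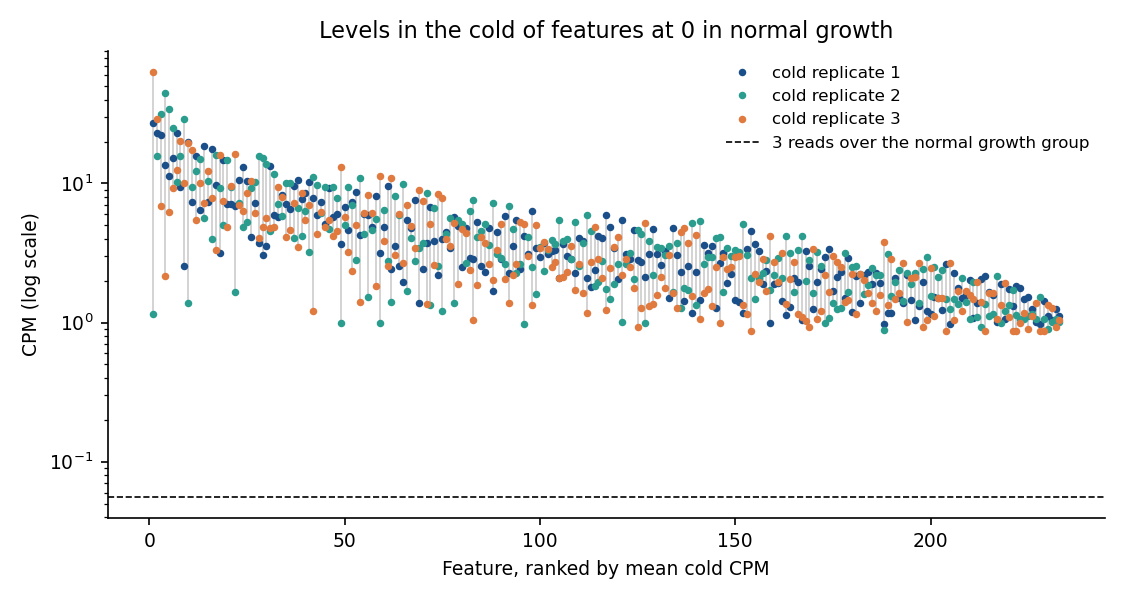
CPM on a log scale of each of the 233 features in cold replicates 1, 2 and 3, ranked by mean cold level, with a grey line from the lowest to the highest cold library. All cold values lie at 0.869 CPM or above, and the dashed line marks 0.0561 CPM, the level of 3 reads over the normal growth group, in which every feature was at 0.

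Scaled to length, the median feature lay in the upper part of the detected features of each cold library. The mean level of the 233 in the cold on the TPM scale (scaled to contig length and library, and summed over the contigs of a cluster) had a median of 3.02 and ran from 0.687 to 30.3 TPM. In cold replicate 1 the lowest, median and highest values were 0.43, 2.89 and 40.1 TPM. In cold replicate 2 they were 0.35, 2.92 and 24.9 TPM, and in cold replicate 3 they were 0.25, 2.56 and 46.4 TPM. The median feature lay above 67.2%, 67.0% and 68.9% of the features with at least 1 read in cold replicates 1, 2 and 3. The read minimum alone keeps out the lowest levels, and the comparison features had a median of 6.80 TPM.

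Taking each 0 as a count, and against a floor of 3 reads over the normal growth group, each feature was at least 18.7-fold higher in the cold. The read minimum of the rule alone puts every such value above 16-fold, so nothing is read from the lowest. The floor covers counting error only and gives no bound on reads that a feature shared and that were assigned to another contig, a limit that bears on each bound given below. The lower bound had a median of 52.7-fold and a highest value of 546-fold. It was at least 100-fold for 51 features and at least 200-fold for 11. The bounds use the mean cold level and take no account of how the cold libraries differ. Fitted over all features, cold against normal growth called 233 of the 233 higher by edgeR's quasi-likelihood test (Benjamini-Hochberg adjusted p under 0.05), where 18.5% of the 35987 features tested were called higher. The rule used this contrast, so nothing is read from that count.

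The 2 IDs named here are the features with the highest value in their lowest cold library. The rest are described without ID because the tables give them no gene names. Unigene41599_All, an unclustered contig of 1262 bases, had 352 estimated reads in cold replicate 1, 267 in cold replicate 2 and 502 in cold replicate 3, against 0 in each of the 3 normal growth libraries. Scaled to library size this was 23.1, 15.8 and 29.1 CPM, a mean of 22.7 ± 6.65 CPM (SD, n = 3). It was high in all 3 cold libraries, and its 15.8 CPM in the lowest of them was the highest such value of the 233, far inside the limit of 50 CPM. It also had the highest mean level per length of the 233, at 30.3 ± 8.11 TPM (SD, n = 3), from 31.1, 21.8 and 38.0 TPM in cold replicates 1, 2 and 3. Its lower bound was 404-fold.

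Unigene39523_All, an unclustered contig of 5448 bases, had 353, 172 and 214 reads in cold replicates 1, 2 and 3, against 0 in each normal growth library. This was 23.1, 10.2 and 12.4 CPM, a mean of 15.2 ± 6.89 CPM (SD, n = 3), and a lower bound of 272-fold. Cold replicate 1 stood above the other 2 cold libraries. Spread over its greater length, the reads gave only 6.63, 2.99 and 3.45 TPM. The next highest value in a lowest cold library belonged to an unclustered contig of 1586 bases, with 9.37, 15.8 and 20.1 CPM in cold replicates 1, 2 and 3.

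The highest means were not always shared by the 3 cold libraries. The feature of highest mean, an unclustered contig of 3411 bases, had 418, 19.5 and 1093 reads in cold replicates 1, 2 and 3, against 0 in each normal growth library. Its mean of 30.6 ± 31.2 CPM (SD, n = 3) was thus made by cold replicates 1 and 3, with cold replicate 2 only just above the read minimum. The feature of largest spread, an unclustered contig of 5500 bases, had 209, 749 and 37.4 reads, or 13.6, 44.4 and 2.17 CPM. Here cold replicate 2 held most of the reads. At the other end, a contig of 3425 bases had 47.8, 55.8 and 58.6 reads, or 3.13, 3.31 and 3.40 CPM, the smallest spread of the set.

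The cold libraries differed from each other for most of the set. The coefficient of variation (CV, the SD divided by the mean) of CPM over the 3 cold libraries had a median of 41.1% and ran from 4.18% to 109%. Counting error alone would give a median of 14.4%, and separate libraries are expected to differ by more. For the comparison features counting error would give 8.87%. The highest cold library exceeded the lowest at least 3-fold in 69 features and at least 10-fold in 6. In 11 features 1 cold library held over 66.7% of the summed CPM. The 3 cold values of such features do not describe a common level.

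The comparison features had a median CV of 32.1%, and the gap to them differed by level. Below 2 CPM the medians were close, at 31.3% for 54 features at 0 in normal growth and 29.2% for 2168 comparison features. From 2 to 5 CPM they were 47.2% and 40.1%, from 5 to 10 CPM 49.4% and 36.7%, and at 10 CPM or above 48.0% for 15 features and 25.8% for 9275. Among unclustered contigs alone the gap was smaller, at 40.7% against 38.1% over all levels, and 48.0% against 36.5% at 10 CPM or above. Features are not replicates, so these medians are descriptions without a test. Leaving out any 1 cold library kept the order of the medians, with 33.7% to 38.6% for the features at 0 in normal growth and 23.7% to 29.9% for the comparison features.

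No single cold library carried the set. The level was highest in cold replicate 1 for 78 features, in cold replicate 2 for 92 and in cold replicate 3 for 63. These are 33.5%, 39.5% and 27.0% of the 233, against 33.4%, 38.2% and 28.5% of the comparison features. With library sizes scaled by TMM (a trimmed mean of ratios between libraries) the order of cold replicates 1 and 3 turned, with 69, 89 and 75 features highest in cold replicates 1, 2 and 3. Across the 233 features, Spearman correlations of CPM between cold libraries were 0.49 for replicates 1 and 2, 0.55 for replicates 1 and 3 and 0.33 for replicates 2 and 3. The comparison features gave 0.84, 0.87 and 0.80 over a far wider range of levels, and features of a library share its depth.

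Length was not used by the rule. The longest contig of each feature had a median of 1712 bases and ran from 245 to 8270 bases, with 191 features at 1000 bases or more, 47 at 3000 or more and 5 under 500. Most of the set were thus contigs above 1000 bases. The comparison features had a median of 1940 bases, and among unclustered contigs the medians were 1758.5 bases for those at 0 in normal growth and 1875 for those with reads there. The order changed with level. Medians for the 233 and the comparison features were 1256 and 1266 bases under 2 CPM, and 1910 and 1730 from 2 to 5 CPM. They were 1953 and 2160.5 from 5 to 10 CPM, and 3685 (15 features) and 2233 at 10 CPM or above. Comparison features with over 100 reads summed over normal growth had a median of 2058 bases. Classes with fewer reads there had medians of 1212 to 1710 bases. The longest feature of the set had 57.0, 144 and 23.5 reads in cold replicates 1, 2 and 3, or only 0.70, 1.63 and 0.25 TPM. The shortest had 15.5, 18 and 24.0 reads, which over its 245 bases came to 12.7, 13.9 and 16.6 TPM. A fixed read minimum asks for a higher TPM of a shorter contig, so the plot of length and level has an empty lower left corner that the rule itself sets.

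**Figure D2:**
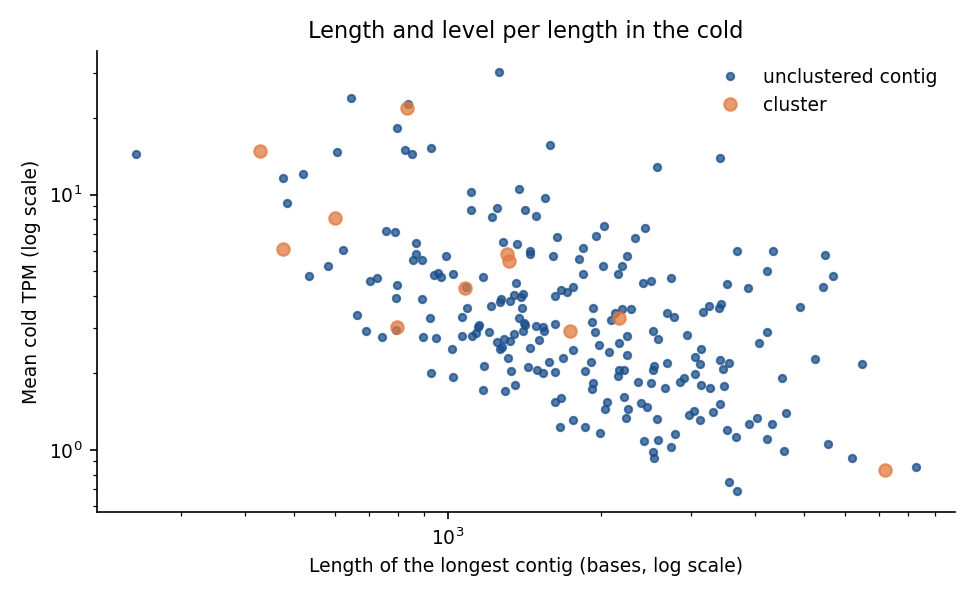
Mean cold TPM against the length of the longest contig, both on log scales, for 222 unclustered contigs and 11 clusters. Lengths run from 245 to 8270 bases and levels from 0.687 to 30.3 TPM, and the highest level belongs to a contig of 1262 bases.

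The next comparison asked how reads had been assigned to these features. RSEM splits a read that fits more than 1 contig among them. A summed count that is not whole holds at least 1 read only in part. It does not tell how many reads were split or where the other parts went, and a whole sum shows no such fraction. Such sums were rare in the set. Only 29 of the 233 features, or 12.4%, had whole sums (within 0.005 read, on values written to 2 decimals) in all 3 cold libraries, against 25.6% of the comparison features. No cold sum was whole for 198 features, or 85.0%, against 61.4% of the comparison features. Most features that were empty in normal growth thus held at least 1 read only in part in every cold library. How many of their reads were shared with contigs outside them is not known.

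The gap held at each level of abundance. Features without any whole cold sum made up 70.4% of those under 2 CPM, against 47.7% of the comparison features. The values were 86.6% and 62.7% from 2 to 5 CPM, 93.3% and 65.9% from 5 to 10 CPM, and 15 of 15 features, against 61.6%, at 10 CPM or above. Among unclustered contigs alone they were 87.4% and 71.2% over all levels. Of the 37 features of the mirrored rule, 31, or 83.8%, had no whole sum in any of the 3 normal growth libraries in which they had reads. No share of other features was computed in those libraries, so no gap is read from this.

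**Figure D3:**
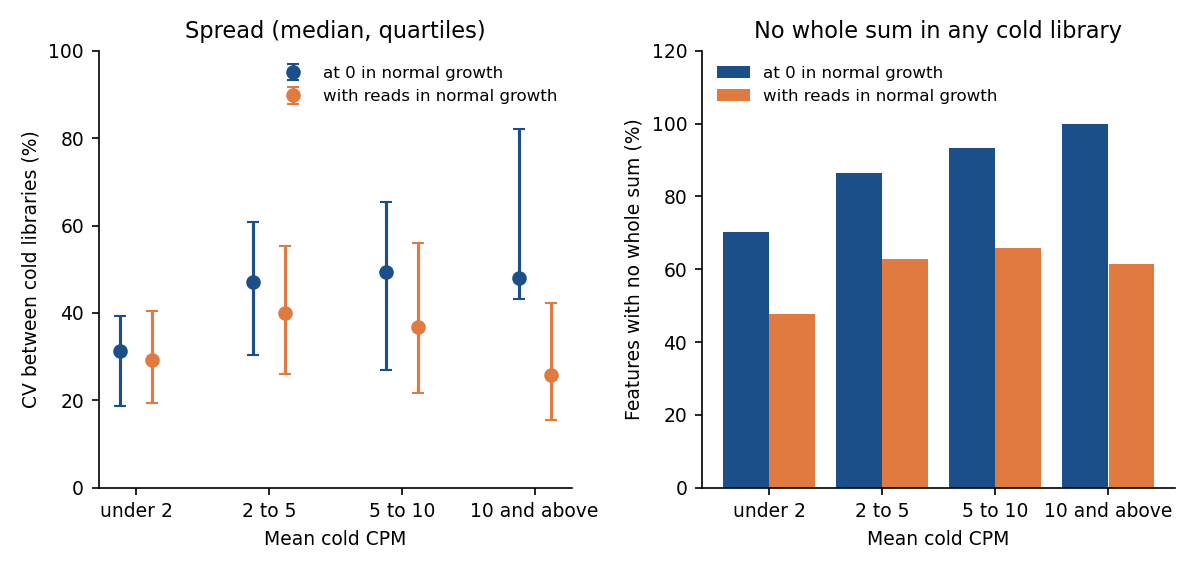
By class of mean cold CPM, the median and quartiles of the CV between cold libraries (left) and the percentage of features with no whole read sum in any cold library (right), for the 233 features at 0 in normal growth and 21632 comparison features with reads there. Both measures are higher in the first group in each class, and the CV differs least below 2 CPM, at 31.3% and 29.2%.

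Exact zeros stood apart from near zeros. Of the features that met the cold conditions, 233 had a normal growth sum of 0, but only 64 had a sum over 0 and up to 1 read, 89 over 1 and up to 2, and 97 over 2 and up to 3. The count at 0 is thus above those just outside it. Split by read assignment, this excess lay with the features that had no whole cold sum. Those with no whole cold sum numbered 198 at 0, 22 over 0 and up to 1 read, 41 over 1 and up to 2, and 41 over 2 and up to 3. Those with whole sums in all 3 cold libraries numbered 29, 37, 39 and 50 in the same classes, with no excess at 0. Where reads are shared, a 0 can also mean that all of them were estimated to belong elsewhere. How far this set the zeros of the 198 features was not tested.

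**Figure D4:**
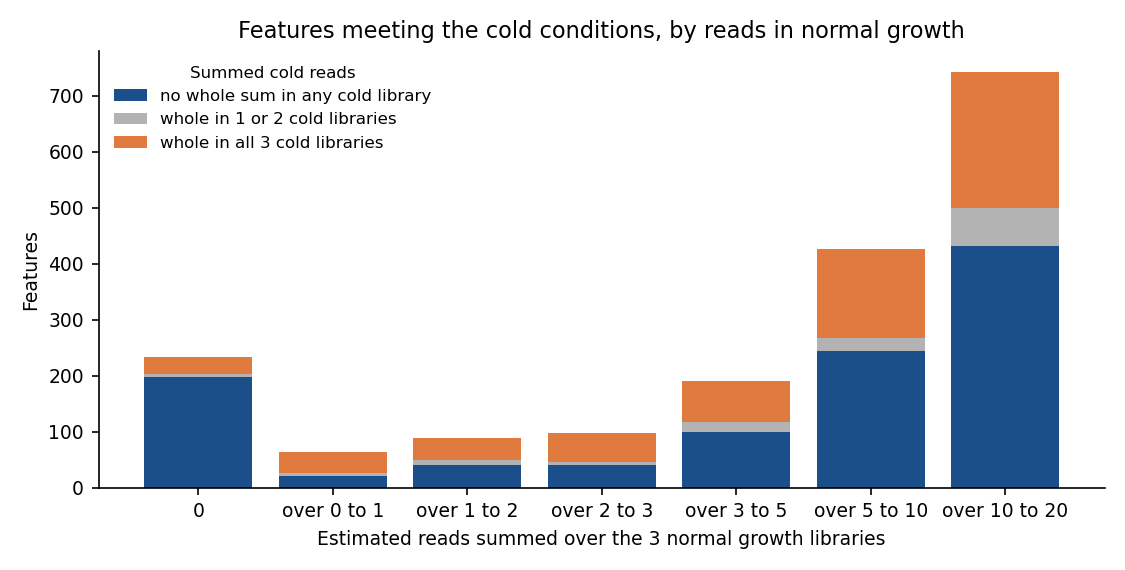
Number of features meeting the cold conditions, by the estimated reads summed over the 3 normal growth libraries, with colours for whether the summed cold reads were whole. The bar at 0 holds 233 features, of which 198 had no whole cold sum, and the next bar holds 64, of which 22 had none.

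The 29 features with whole sums are those in which the cold reads were not shared in fractions with contigs outside. The one of highest mean, an unclustered contig of 794 bases, had 111, 173 and 106 reads in cold replicates 1, 2 and 3, against 0 in each normal growth library. This was 7.26, 10.3 and 6.14 CPM, a mean of 7.89 ± 2.13 CPM (SD, n = 3), with a lower bound of 141-fold. Cold replicate 2 stood above the other 2 cold libraries, with a CV of 27.0% over the 3. Of the 29 features, 14 had a mean under 2 CPM, 12 from 2 to 5 CPM and 3 from 5 to 10 CPM, so none belonged to the most abundant class.

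Summing over clusters bore strongly on what counted as silent. Taken one by one, 983 contigs met the rule, of which 222 were unclustered and 761 belonged to clusters. Of the 761, 756 sat in clusters that had reads in normal growth, and only 5 in clusters of the set. Those 630 other clusters had a median of 52.8 CPM in the cold and 42.9 CPM in normal growth, and 606 of them were at 1 CPM or more in normal growth. For contigs in clusters, silence before cold was thus nearly always that of contigs within a cluster that had other reads. Of all 8991 clusters that met the cold conditions, 8980 had reads in normal growth. The 756 of 761 lies near that share, so nothing particular to these contigs is read from it. An unclustered contig has no sister in its own cluster to sum with, and the tables give no other way to find related contigs.

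Within the 11 clusters of the set, 1 contig usually dominated. The same contig led in all 3 cold libraries in 8 clusters, or 72.7%, against 68.5% of 5362 comparison clusters with 2 to 4 contigs. The contig leading in a library held at least 42.5% of the cluster's reads there, in each of the 11 clusters and 3 cold libraries. Every contig had reads in all 3 cold libraries in only 3 of the 11 clusters. The most abundant cluster, of 3 contigs with a longest contig of 831 bases, had 273, 67.7 and 135 reads in cold replicates 1, 2 and 3, against 0 in each normal growth library. This was 17.8, 4.02 and 7.81 CPM, so cold replicate 1 was far above the other 2 cold libraries.

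To see how far silence held in a library that had no part in the choice, the rule was applied without 1 library and the chosen features were read in it. Without normal growth replicate 1, 350 features met the rule, and 233 of them, or 66.6%, were at 0 in that library. Without normal growth replicate 2 it was 68.5% of 340, and without normal growth replicate 3 it was 57.7% of 404. Of all 21865 features that met the cold conditions, 3.33%, 4.49% and 2.91% were at 0 in normal growth replicates 1, 2 and 3. Silence in 2 normal growth libraries was thus usually but not always shared by the third.

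Where the library left out was not at 0, its reads were mostly few. Over 0 and up to 3 reads were found for 45, 44 and 77 features in normal growth replicates 1, 2 and 3, and 15 reads or more for 26, 23 and 35. The median of those not at 0 was 4, 4 and 4.2 reads, and the highest value was 102, 128 and 730 reads. The left-out library lay below all 3 cold libraries for 97.4%, 98.2% and 96.5% of the chosen features, against 44.6%, 47.3% and 43.3% of all features that met the cold conditions. The chosen features were at 0 in the other normal growth libraries by choice. Of all 21865 features that met the cold conditions, 16045 had over 100 reads summed over normal growth. A gap is thus built into the choice, and nothing is read from its size. Features without a whole cold sum were at 0 in the left-out library in 68.8%, 71.0% and 63.1% of cases, against 59.2%, 60.4% and 40.3% of features with whole sums. Those at 0 were each time the same 198 and 29 features of the 233. These shares are thus not independent of each other or of the rule, and nothing is read from them.

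The same was done with each cold library left out. Without cold replicate 1, 306 features met the rule and 76.1% of them reached 15 reads in that library. Without cold replicate 2 it was 70.4% of 331, and without cold replicate 3 it was 56.1% of 415. Reads of any number were found for 92.2%, 90.0% and 92.8%. Cold replicate 3 was thus the library that most often fell short of the minimum, with 152 features over 0 and under 15 reads. By total reads it was the deepest of the cold libraries. It had the fewest features with at least 1 read, at 72518, against 80115 and 83633 in cold replicates 1 and 2. Of the features that met the full rule, 42.1% were lowest in cold replicate 3, and so were 42.5% of the comparison features. The shortfall is therefore not read as particular to the chosen features.

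**Figure D5:**
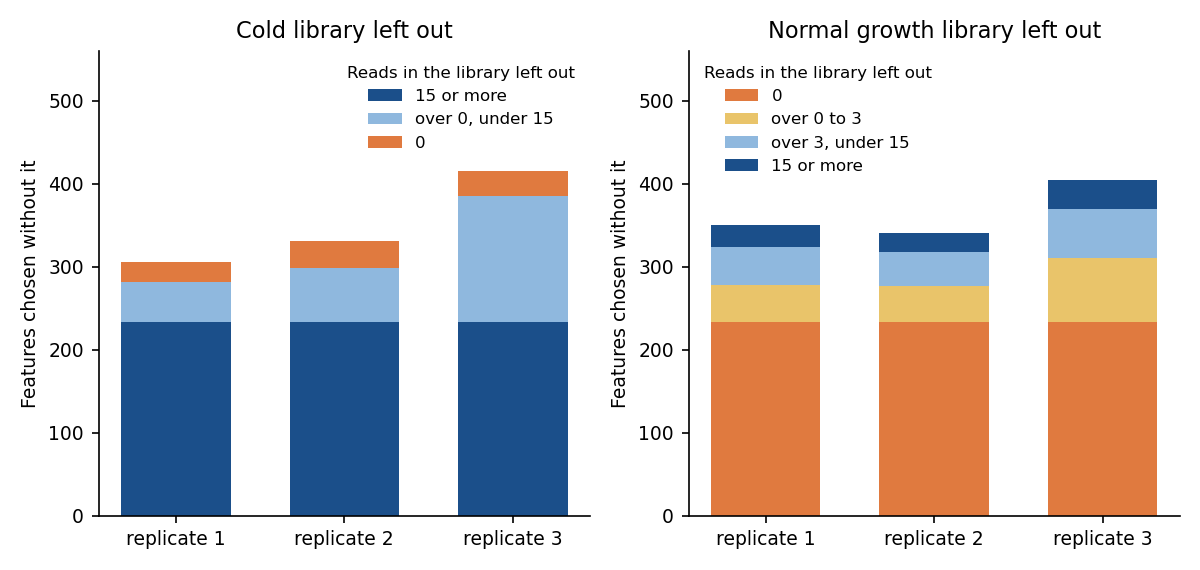
Number of features that met the rule without the named library, with colours for their reads in that library, for the 3 cold libraries (left) and the 3 normal growth libraries (right). In each bar 233 features also met the rule in the library left out, and the rest, 73 to 182 in the cold panel and 107 to 171 in the normal growth panel, did not.

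When 1 cold and 1 normal growth library were both left out, in each of the 9 possible pairs, 447 to 691 features met the rule in the remaining 4 libraries. Neither left-out library had been used for that choice. The level was higher in the left-out cold library than in the left-out normal growth library for 87.7% to 91.4% of the chosen features. The same held for 53.9% to 58.3% of all features that met the cold conditions in the other 2 cold libraries. Their summed level was 1584 to 2044 CPM in the left-out cold library and 88.4 to 214 CPM in the left-out normal growth library, a ratio of 7.86 to 22.1. Both conditions of the rule were met for only 33.7% to 52.1% of them. The higher level in cold thus recurred for most features of these sets in the libraries left out. The 233 are in each set and were higher in cold there by the full rule, so nothing is read from this for them. The features used as background were not matched for few reads in normal growth. The 9 pairs share libraries and are not 9 independent repeats.

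The edges of the rule ran through a dense part of the data. In 63 of the 233 features the lowest cold library had under 20 reads, and in 16 it had 15 to under 16. Just outside, 19 features at 0 in normal growth had a lowest cold library of 14 to under 15 reads, up to 14.85, and 151 had one of 10 to under 15. At the upper limit there was no such crowding, since 21 features had a lowest cold level of 5 CPM or more and the highest was 15.8 CPM.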

How the data were processed

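RNA of 6 libraries was sequenced, 3 cold and 3 normal growth, grouped by the treatment label. Per the labels' protocols, mRNA was enriched with oligo(dT) beads and copied with random hexamers. Bowtie2 2.2.5, RSEM 1.2.8 and DESeq2 are listed, without roles, in the submitters' processing notes, with the assembler not given in the sources used here. Deposited by the authors were an expected count (an RSEM estimate, with shared reads divided) and a TPM value for each of 181669 contigs, per the file headers. Clusters were read from the shared ID prefix.

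Counts and TPM were summed per feature, and CPM used the column total. For the fit across all features, sums were rounded and fitted by edgeR 4.0.16 under R 4.3.3 (filterByExpr, TMM, robust quasi-likelihood fit, no block), and Benjamini-Hochberg adjusted. DESeq2 1.42.0 was an alternative. The fit was checked on simulated data. No feature was made silent in a group there, so the check does not bear directly on this set. The members, comparisons and tests were chosen with earlier results of these data known. The 2 named IDs were to be those with the highest lowest-cold CPM. Same-numbered libraries were not treated as pairs. Depth was 15284397 to 18085164 reads.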

Additional observations from a re-analysis of the deposited data

How the results depend on the processing

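The number of features meeting the rule was 384 at a minimum of 10 reads, 983 for contigs taken one by one and 29 with whole cold sums alone, a setting chosen after seeing the data, against 233 as reported. It was 306 to 415 without 1 library, and can only rise when fewer libraries are asked to meet the rule. At 20 reads (170), with at most 1 read over normal growth (297) and without the upper limit (233) it stayed within 1.5 times. The count of the 233 called higher was 208 to 233 under all settings run (edgeR with other scalings, no filter, an adjusted p under 0.01 or 1 library left out, and DESeq2). Deviations of same-numbered libraries correlated at -0.092, -0.0088 and -0.13, so numbers were not taken as pairs, and with the replicate block edgeR called 214. The read share, the median CV, the median length, the count of whole sums, the shares in left-out libraries and the count highest in cold replicate 2 moved by less than 1.5 times or the spread between libraries. At a tolerance of 0.05 read, 33.2% of comparison features and still 12.4% of the 233 had whole sums. Depth limits a single 0 to 3 reads of a library, and the feature of lowest mean cold level carried a counting error of 24.1%. Causes of these shifts, beyond the number of libraries, were not tested.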
